A study of Drosophila melanogaster with 16 samples.

Results

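The 79 genes described here were lowered in tumours of all 4 genotypes studied, out of 11196 features measured on custom arrays. A gene belongs to them if its log2 ratio of tumour to wild-type RNA averaged -0.7 or less in each genotype, after the median of each array was subtracted. 2 features that met this limit were left out by the rule, FBgn0001254 and FBgn0024294. The level against wild-type therefore chose the genes, and their low values are given as a description without a test. The RNA came from Drosophila melanogaster tumours grown from clones of mutant cells in larval eye-antennal discs. The tumours were RafGOF scrib- (a gain-of-function Raf with loss of scrib, spelled scirb- in the sample titles), RasV12 cdc42- (an activated Ras with loss of cdc42), RasV12 baz- (activated Ras with loss of baz) and RasV12 scrib- (activated Ras with loss of scrib), all taken at day 10. Wild-type discs of day 5 to 6 were the reference on every array, and all larvae were kept at 25 °C, so tumour and age differed together and cannot be told apart here. Each RNA came from many pooled discs, and a tumour could hold cells outside the mutant clones. Fewer cells of a type and less RNA per cell cannot be told apart in such tissue.

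Imaginal discs are epithelial sacs that form adult structures, and the eye-antennal disc forms the eye, the antenna and parts of the head. In late larval life its cells stop dividing in a wave and differentiate into photoreceptors and support cells, while steroid hormone pulses prepare the disc to evert. Ras and its kinase Raf drive growth and differentiation there. The products of scrib, baz and cdc42 hold the apical and basal sides of the epithelium apart, and activated Ras joined to a loss of such polarity is a classical fly model of malignant growth, in which the larvae often fail to pupate in time.

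None of the 79 genes could be given a symbol. The features carry FlyBase-style identifiers, which were looked up in a RefSeq gene table of the Release 6 assembly, and 71 of the 11196 features obtained 1 symbol. The genes are therefore called by their identifiers, and their function, position and sequence were not analysed here. Of 244 symbols in 15 lists of disc patterning, neuronal, glial, muscle, haemocyte, fat body, ecdysone response and other genes, 2 were matched, Lsp2 and Eig71Ee, and neither is among the 79. The labelled tissue could thus not be checked against its markers.

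Each genotype had 4 arrays. RafGOF scrib- replicates 1 and 2 were identical in 95.1% of their values, while other pairs of arrays shared at most 0.143%, and they were averaged and counted as 1 sample. RafGOF scrib- thus had n = 3 and the other genotypes n = 4, which left 15 replicates, and this number limits the precision. Over all features, RasV12 baz- replicate 4 correlated at 0.28 to 0.44 with the other RasV12 baz- replicates. It correlated at 0.71 and 0.65 with RasV12 cdc42- replicates 4 and 3. This array was kept as labelled, so it enters every RasV12 baz- value below, and the cause was not tested. Before averaging, RafGOF scrib- replicate 1 correlated at 0.46 and 0.38 with RafGOF scrib- replicates 3 and 4. With RasV12 scrib- replicates 1 and 2 it correlated at 0.64 and 0.63. The averaged pair was also kept as labelled and enters every RafGOF scrib- value below, and the cause was not tested. The values were deposited as log ratios, whose direction is not stated. Tumour over wild-type was assumed because the tumour is channel 1 of every array in the labels, which does not settle the direction. With the opposite direction every "lower" or "lowered" here would read "higher" or "raised" at the same size. Log2 ratios below are centred on each array's median unless stated otherwise. Over all features their SD on an array was 0.43 to 0.66 in RafGOF scrib-, 0.51 to 0.65 in RasV12 cdc42-, 0.44 to 0.64 in RasV12 baz- and 0.74 to 0.79 in RasV12 scrib-. The lowest deposited value of any feature was -3, -5.29, -3 and -3.17 on RasV12 cdc42- replicates 1 to 4. On the other arrays it lay between -4.10 (RasV12 baz- replicate 4) and -6.11 (RasV12 scrib- replicate 1). Whether this limits how low the deepest genes could read in RasV12 cdc42- was not tested. The labels call the arrays biological replicates and leave unsaid whether every array received the same wild-type RNA. The p-values therefore measure the spread between arrays, in which tumour, reference and array variation are not separated. Over all features, replicates 1-2 and 3-4 correlated at 0.77 and 0.81 in RasV12 scrib-, and at 0.45 to 0.51 across these pairs. In RasV12 cdc42- it was 0.80 and 0.81, and 0.20 to 0.44 across. In RasV12 baz- replicates 1-2 and 3-4 correlated at 0.66 and 0.28. The main p-values treat the replicates as independent and leave such pairs out of account.

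The genes ranged from a mean log2 ratio over the genotypes of -3.42 in FBgn0034462, which is 10.7-fold lower, to -0.87 in FBgn0030329 and FBgn0035092, with a median of -1.51 (2.85-fold lower). Of the 79, 19 averaged -2 or less, 54 lay between -2 and -1, and 6 lay above -1. Single replicates varied around these means, and 75 genes were below 0 on each of the 15 replicates and the other 4 on 14. The limit of -0.7 was met on every replicate by 27 genes. FBgn0035092 met it on the fewest, 8 of 15.

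**Figure D1:**
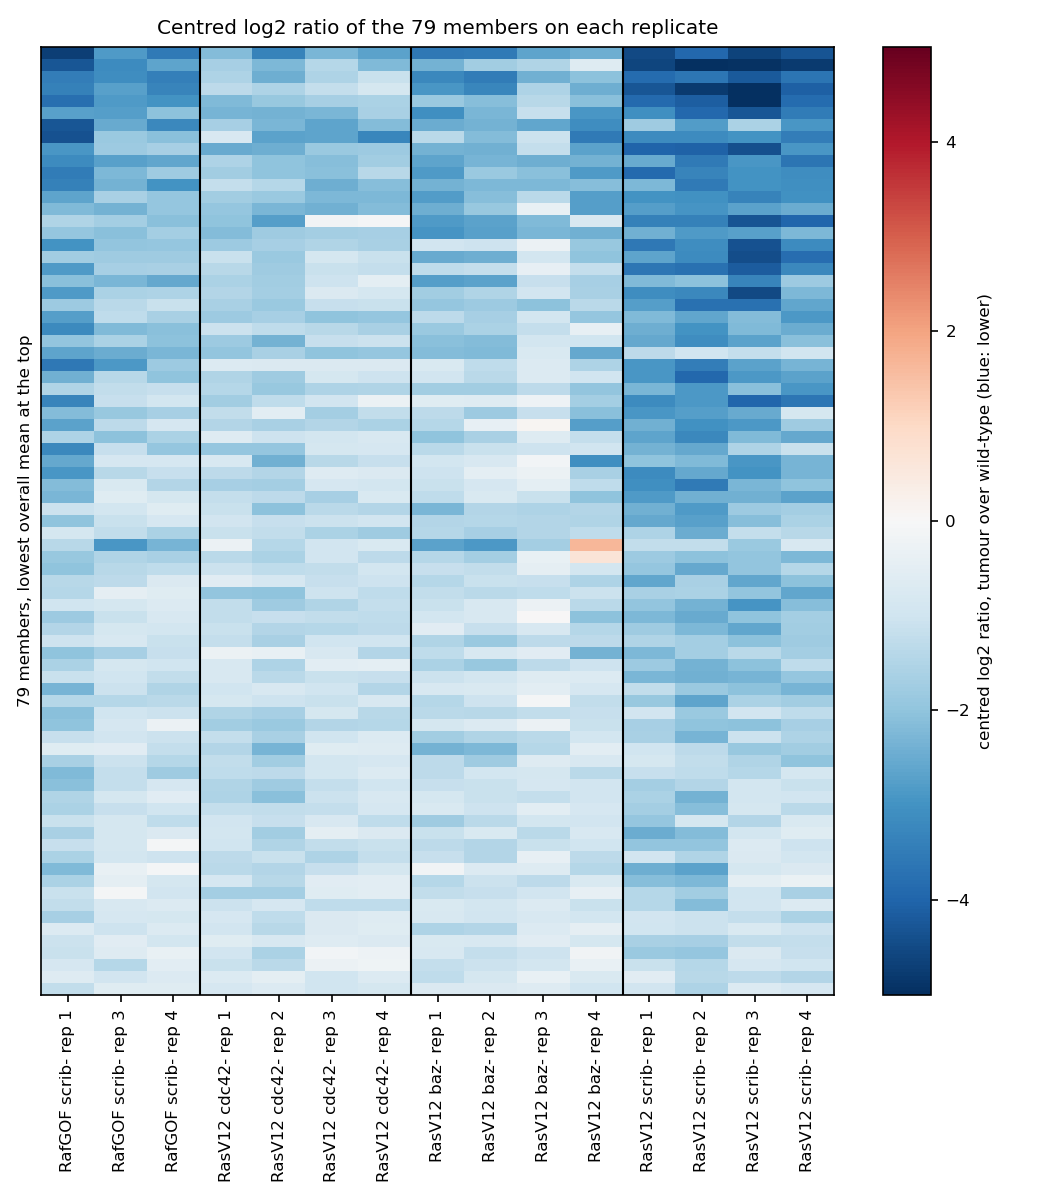
Centred log2 ratio, tumour over wild-type, of the 79 genes (rows, lowest mean over the genotypes at the top) on the 15 replicates (columns, grouped by genotype). Blue is lower in the tumour, and nearly every cell is blue: 75 genes are below 0 on every replicate, and the 4 exceptions lie on RasV12 baz- replicates 3 and 4.

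The 4 genes with a replicate above 0 had it in RasV12 baz-. FBgn0036467 read 1.67 on RasV12 baz- replicate 4, against -2.66, -2.86 and -1.70 on replicates 1, 2 and 3. FBgn0035199 read 0.65 on the same array and -1.42, -1.69 and -0.37 on the others. On RasV12 baz- replicate 3, FBgn0003378 read 0.09 and FBgn0039255 read 0.03, and both were lowest on replicate 4, at -2.77 and -2.06. These 4 genes were singled out after their values were seen.

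The median over the 79 genes was negative on each replicate. It was -1.99, -1.21 and -1.27 on the RafGOF scrib- replicates, -1.29, -1.62, -1.14 and -1.11 on those of RasV12 cdc42-, -1.36, -1.41, -0.94 and -1.31 on those of RasV12 baz-, and -2.24, -2.51, -2.09 and -1.94 on those of RasV12 scrib-. RafGOF scrib- replicate 1, the averaged pair, lay beside the RasV12 scrib- arrays, and RasV12 baz- replicate 3 was the shallowest. The number of genes at -0.7 or less ran from 50 of 79 on RasV12 baz- replicate 3 to 79 of 79 on RasV12 scrib- replicate 2. Of all 11196 features, 3.80% were at -0.7 or less on RasV12 baz- replicate 3 and 19.8% on RasV12 scrib- replicate 2, so the arrays also differed in how many other features they placed this low. The spread between replicates was larger for these genes than for features in general. The median SD was 0.46 in RafGOF scrib- (0.26 over all features), 0.32 in RasV12 cdc42- (0.29), 0.40 in RasV12 baz- (0.28) and 0.46 in RasV12 scrib- (0.37).

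**Figure D2:**
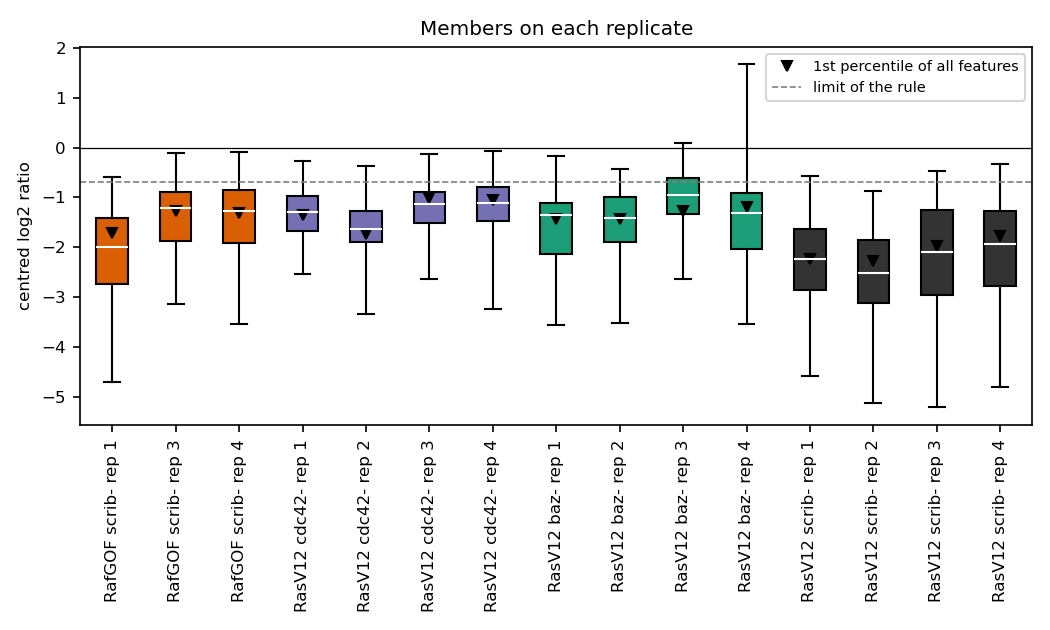
Distribution of the centred log2 ratios of the 79 genes on each replicate (box: quartiles and median; whiskers: lowest and highest gene), coloured by genotype, with the 1st percentile of all features (triangles) and the limit of -0.7 (dashed). Box medians run from -2.51 on RasV12 scrib- replicate 2 to -0.94 on RasV12 baz- replicate 3.

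The lowest gene, FBgn0034462, read -4.70, -2.81 and -3.54 in RafGOF scrib-, -2.15, -3.34, -2.27 and -2.69 in RasV12 cdc42-, -3.56, -3.53, -2.63 and -2.45 in RasV12 baz-, and -4.52, -3.94, -4.63 and -4.30 in RasV12 scrib-. Its means correspond to levels 12.9-fold, 6.12-fold, 8.24-fold and 20.4-fold lower than wild-type in that order of genotypes. The RafGOF scrib- values spread over those of RasV12 scrib-, while no RasV12 cdc42- or RasV12 baz- value reached them.

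Among the next 4 genes by mean, the RasV12 scrib- replicates lay below every replicate of the other genotypes. FBgn0003295 read -4.27, -3.13 and -2.63 in RafGOF scrib-, -1.68, -2.23, -1.42 and -2.23 in RasV12 cdc42-, -2.36, -1.75, -1.52 and -0.65 in RasV12 baz-, and -4.57, -5.12, -4.92 and -4.80 in RasV12 scrib-. That is 28.9-fold below wild-type in RasV12 scrib- and 2.97-fold in RasV12 baz-, where replicate 4 stood above the limit of -0.7. FBgn0037665 gave -3.45, -3.09 and -3.40 in RafGOF scrib-, -1.55, -2.44, -1.53 and -1.13 in RasV12 cdc42-, -3.23, -3.49, -2.42 and -2.06 in RasV12 baz-, and -3.84, -3.61, -4.20 and -3.66 in RasV12 scrib-. Its RafGOF scrib- values were close together, and RasV12 cdc42- was its shallowest genotype.

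FBgn0001255 had -3.37, -2.72 and -3.29 in RafGOF scrib-, -1.33, -1.54, -1.21 and -0.86 in RasV12 cdc42-, -2.93, -3.27, -1.55 and -2.46 in RasV12 baz-, and -4.29, -4.80, -5.21 and -4.09 in RasV12 scrib-. This gene had the widest spread of genotype means, 3.37 on the log2 scale, from 24.2-fold lower in RasV12 scrib- to 2.35-fold lower in RasV12 cdc42-. For FBgn0040282 the log2 ratios were -3.79, -2.83 and -2.98 in RafGOF scrib-, -2.20, -1.90, -1.68 and -1.56 in RasV12 cdc42-, -1.85, -2.15, -1.40 and -2.08 in RasV12 baz-, and -3.88, -4.12, -5.07 and -3.86 in RasV12 scrib-. Here RasV12 cdc42- and RasV12 baz- overlapped and lay above both scrib- genotypes.

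FBgn0029863 read -2.72, -2.75 and -2.05 in RafGOF scrib-, -2.31, -2.34, -2.29 and -1.61 in RasV12 cdc42-, -3.08, -2.30, -1.14 and -2.91 in RasV12 baz-, and -3.07, -3.95, -4.28 and -3.49 in RasV12 scrib-. RasV12 baz- replicate 1 read slightly below RasV12 scrib- replicate 1, and all other values of the first 3 genotypes lay above RasV12 scrib-. FBgn0039678 read -2.92, -1.83 and -1.66 in RafGOF scrib-, -2.53, -2.45, -1.86 and -1.80 in RasV12 cdc42-, -2.35, -2.41, -1.18 and -2.68 in RasV12 baz-, and -4.02, -4.06, -4.41 and -2.90 in RasV12 scrib-. The RafGOF scrib-, RasV12 cdc42- and RasV12 baz- means were -2.14, -2.16 and -2.16, against -3.85 in RasV12 scrib-, whose replicate 4 overlapped RafGOF scrib- replicate 1.

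FBgn0039795 gave -3.50, -2.25 and -1.76 in RafGOF scrib-, -1.73, -2.02, -2.09 and -1.39 in RasV12 cdc42-, -2.85, -1.86, -2.09 and -2.84 in RasV12 baz-, and -3.87, -3.28, -3.0 and -3.10 in RasV12 scrib-. In FBgn0029924 the values were -2.63, -1.61 and -1.91 in RafGOF scrib-, -1.75, -1.87, -2.23 and -2.23 in RasV12 cdc42-, -2.79, -2.12, -1.35 and -2.77 in RasV12 baz-, and -3.0, -3.05, -3.36 and -3.01 in RasV12 scrib-. For both genes RasV12 scrib- was lowest by its mean, and in FBgn0029924 none of its replicates was overlapped by another genotype.

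In 3 of the lowest genes RafGOF scrib- and RasV12 scrib- overlapped and lay close together or with RafGOF scrib- below. FBgn0001224 read -4.29, -2.52 and -3.24 in RafGOF scrib-, -1.67, -2.30, -2.62 and -2.17 in RasV12 cdc42-, -2.48, -2.36, -2.59 and -3.09 in RasV12 baz-, and -1.79, -2.81, -1.58 and -2.90 in RasV12 scrib-. It did not pass the F-test among genotypes (adjusted p = 0.522), with RafGOF scrib- lowest by its mean of -3.35 ± 0.89 (SD, n = 3) and RasV12 scrib- at -2.27 ± 0.68 (SD, n = 4). FBgn0001226 read -3.15, -2.72 and -2.61 in RafGOF scrib-, -1.55, -2.01, -2.12 and -1.73 in RasV12 cdc42-, -2.65, -2.34, -2.43 and -2.38 in RasV12 baz-, and -2.50, -3.54, -2.90 and -3.66 in RasV12 scrib-. FBgn0001227 gave -3.37, -2.35 and -2.98 in RafGOF scrib-, -1.18, -1.41, -2.44 and -2.12 in RasV12 cdc42-, -2.36, -2.26, -2.26 and -2.15 in RasV12 baz-, and -2.27, -3.52, -3.0 and -3.08 in RasV12 scrib-. FBgn0001226 and FBgn0001227 had closely spaced RasV12 baz- replicates (SD 0.14 and 0.09), and in both RasV12 cdc42- was the shallowest genotype.

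FBgn0003377 read -4.37, -1.86 and -2.09 in RafGOF scrib-, -0.80, -2.66, -2.64 and -3.24 in RasV12 cdc42-, -1.36, -2.17, -1.07 and -3.53 in RasV12 baz-, and -3.14, -3.14, -2.99 and -3.46 in RasV12 scrib-. Its replicates spread over more than 2 log2 units in RafGOF scrib-, RasV12 cdc42- and RasV12 baz-, and stayed close together in RasV12 scrib- (SD 0.20). FBgn0039073 had -2.21, -2.36 and -1.95 in RafGOF scrib-, -1.94, -2.30, -2.40 and -2.16 in RasV12 cdc42-, -2.44, -1.91, -0.36 and -2.75 in RasV12 baz-, and -2.75, -2.94, -2.66 and -2.50 in RasV12 scrib-. Apart from RasV12 baz- replicate 3, all its values were at -1.91 or below. FBgn0014427 gave -1.5, -1.71 and -2.07 in RafGOF scrib-, -2.01, -2.74, -0.17 and -0.06 in RasV12 cdc42-, -2.83, -2.68, -2.21 and -0.80 in RasV12 baz-, and -3.36, -3.40, -4.30 and -3.97 in RasV12 scrib-. Its RasV12 cdc42- mean of -1.25 ± 1.34 (SD, n = 4) joined a low pair, replicates 1 and 2 with tumour RNA in Cy5, to a pair near 0, replicates 3 and 4 with tumour RNA in Cy3.

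The remaining 5 genes given in full lay higher by their mean and had low F-test p-values among the genotypes. FBgn0039283 read -2.83, -1.67 and -1.62 in RafGOF scrib-, -1.38, -1.78, -1.12 and -1.21 in RasV12 cdc42-, -1.28, -1.20, -0.40 and -1.20 in RasV12 baz-, and -3.63, -3.72, -4.17 and -3.23 in RasV12 scrib-. The log2 ratios of FBgn0029749 were -2.98, -1.98 and -1.93 in RafGOF scrib-, -1.81, -1.64, -1.51 and -1.64 in RasV12 cdc42-, -0.96, -1.03, -0.30 and -1.90 in RasV12 baz-, and -3.59, -3.10, -4.37 and -3.13 in RasV12 scrib-. In FBgn0010433 they were -2.41, -1.40 and -2.0 in RafGOF scrib-, -1.51, -1.78, -0.88 and -1.02 in RasV12 cdc42-, -0.95, -1.35, -0.69 and -0.99 in RasV12 baz-, and -2.89, -3.92, -2.87 and -2.69 in RasV12 scrib-. In each of these 3 the RasV12 scrib- replicates lay below all others and RasV12 baz- was the shallowest genotype.

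FBgn0032895 read -3.56, -2.88 and -1.82 in RafGOF scrib-, -0.67, -0.71, -0.73 and -0.72 in RasV12 cdc42-, -0.76, -1.27, -0.70 and -1.53 in RasV12 baz-, and -2.91, -3.46, -2.66 and -2.33 in RasV12 scrib-. It was low in both scrib- genotypes, whose replicates overlapped, and its RasV12 cdc42- replicates lay close together at the limit of the rule (mean -0.71 ± 0.03, SD, n = 4). FBgn0004170 read -1.12, -1.01 and -1.25 in RafGOF scrib-, -0.78, -1.37, -1.12 and -1.16 in RasV12 cdc42-, -1.08, -0.92, -0.66 and -0.70 in RasV12 baz-, and -2.28, -2.39, -2.32 and -1.94 in RasV12 scrib-. It was about equally low in RafGOF scrib-, RasV12 cdc42- and RasV12 baz- (means -1.13, -1.11 and -0.84) and lower in RasV12 scrib- (-2.23).

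**Figure D3:**
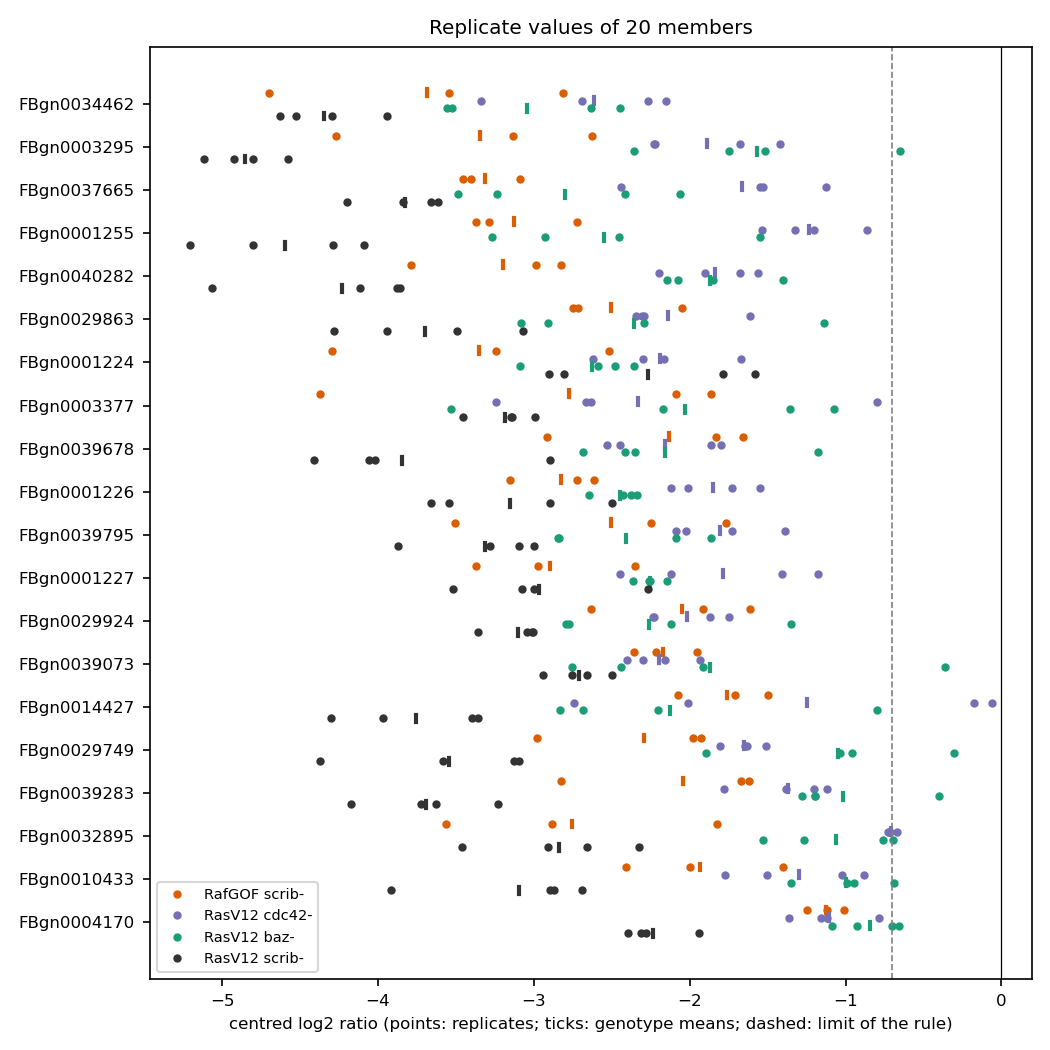
Centred log2 ratios of 20 of the 79 genes (rows, lowest mean at the top), with a point for each replicate and a tick for each genotype mean. The RasV12 scrib- points lie left of all others in genes such as FBgn0003295, FBgn0001255 and FBgn0039283, and overlap the other genotypes in FBgn0001224.

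The depth of the fall differed between genotypes. With centred arrays, 68 of the 79 genes had their lowest mean in RasV12 scrib-, 7 in RafGOF scrib-, 3 in RasV12 baz- and 1 in RasV12 cdc42-, and over all features RasV12 scrib- was lowest for 33.2% and RafGOF scrib- for 24.9%. The median of the means was -1.47 in RafGOF scrib-, -1.25 in RasV12 cdc42-, -1.25 in RasV12 baz- and -2.22 in RasV12 scrib-. This order depended on the scaling of the arrays. With quantile normalization RasV12 scrib- was lowest for 26 of the 79 and for 24.4% of all features. For equal spread, each array was divided by its own median absolute deviation and multiplied by the mean of these deviations over the arrays. RasV12 scrib- was then lowest for 16 of the 79 and for 26.7% of all features, and RafGOF scrib- for 44 of the 79 and 28.5% of all features. The deviations ran from 0.14 on RafGOF scrib- replicate 4 to 0.43 on RasV12 scrib- replicate 2. Equal spread thus enlarged the values of RafGOF scrib- replicate 4 the most. How far the RafGOF scrib- values at equal spread rest on this array was not tested. With values as deposited RasV12 scrib- was lowest for 71 of the 79 and for 50.3% of all features. In the same order of genotypes the medians were -1.53, -1.55, -1.44 and -1.66 after quantile normalization. With equal spread they were -1.86, -1.33, -1.5 and -1.70. Among the 109 features that were raised by 0.7 or more in all 4 genotypes, RasV12 scrib- was highest for 50 with centred arrays and for 9 with equal spread.

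**Figure D4:**
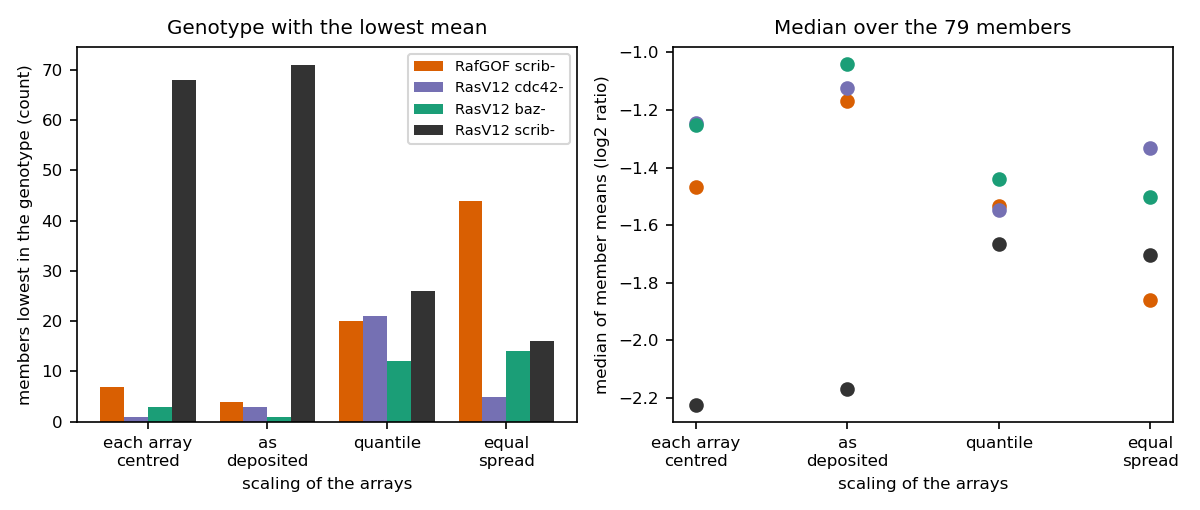
Left, number of the 79 genes with their lowest mean in each genotype; right, median of the genotype means, under 4 scalings of the arrays (centred, as deposited, quantile, equal spread). RasV12 scrib- holds the lowest mean for 68 and 71 genes in the first 2 scalings, and for 26 and 16 in the last 2.

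Differences between genotypes were tested across all 11196 features with limma on centred arrays, with a term for the dye of the tumour RNA and Benjamini-Hochberg adjustment at 0.05. The rule sets an upper bound on each mean and not the distance between genotypes, but it used the same arrays, so the shares below describe these genes and do not show that they stand apart. In an F-test over the 4 genotypes 25 of the 79 passed, against 4.38% of all features. In all 25 the lowest mean was that of RasV12 scrib-, as in 68 of the 79 on centred arrays. This was not counted over all features that passed. FBgn0001255 (adjusted p = 0.000244), FBgn0040282 (0.000276), FBgn0003295 (0.000334) and FBgn0039283 (0.000377) had the lowest adjusted p. The count was 8 with quantile normalization, where 5.03% of all features passed, and 4 with equal spread, where 3.43% did. It was 12 on the arrays whose tumour RNA carried Cy3 (1.92% of all features) and 6 with replicates 1-2 and 3-4 of a genotype as random blocks (0.706%). The correlation within these blocks was 0.503, while the main fit treats all replicates as independent. Array weights, whose estimation stopped before convergence, gave 49 (31.2%), and 15 passed without RasV12 cdc42- replicate 1 (2.55%). FBgn0003295, FBgn0039283 and FBgn0032895 each passed the F-test in all 25 alternative fits.

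RasV12 cdc42- and RasV12 scrib- carry the same activated Ras and lack different polarity genes. Against RasV12 scrib-, 32 of the 79 genes were higher in RasV12 cdc42- and thus less lowered (limma, adjusted p under 0.05, n = 4 each), against 2.86% of all features, and they differed by 0.71 to 3.37 on the log2 scale. The difference was 3.37 ± 0.33 for FBgn0001255 (SE, 10.3-fold, adjusted p = 5.41e-05), 2.97 ± 0.37 for FBgn0003295 (7.82-fold, adjusted p = 0.000294), 2.40 ± 0.27 for FBgn0040282 (5.27-fold, adjusted p = 0.000141) and 2.17 ± 0.29 for FBgn0037665 (4.49-fold, adjusted p = 0.0006). In 40 of the 79 genes every RasV12 cdc42- replicate lay above every RasV12 scrib- replicate, as in 5.81% of all features, and in 1 every replicate lay below (3.49%). In either direction the calls were 32 of the 79 and 4.30% of all features. They were 10 with quantile normalization (2.41% of all features), 7 of them higher and 3 lower, 2 with equal spread (1.18%), 12 on the Cy3 arrays (1.58%) and 8 with the random blocks (0.831%). They were 20 without RasV12 cdc42- replicate 1 (2.31%) and 21 without replicate 4 (2.44%).

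Between RasV12 baz- and RasV12 scrib-, which likewise share the activated Ras, 20 of the 79 genes were higher in RasV12 baz- (n = 4 each), against 2.3% of all features, by 0.96 to 3.30 on the log2 scale. FBgn0003295 led with 3.30 ± 0.41 (SE, 9.88-fold, adjusted p = 0.000795), followed by FBgn0039283 with 2.46 ± 0.31 (5.50-fold, adjusted p = 0.00082). FBgn0029749 differed by 2.24 ± 0.36 (adjusted p = 0.0039) and FBgn0010433 by 2.03 ± 0.33 (adjusted p = 0.00495). The groups did not overlap, with RasV12 baz- above, in 36 of the 79 genes and in 7.37% of all features. With RasV12 baz- below they did so in 0 of the 79, against 4.17% of all features. In either direction the calls were 20 of the 79 and 3.25% of all features. They were 4 with quantile normalization (1.45% of all features), 1 with equal spread (0.607%), 11 on the Cy3 arrays (1.98%), 5 with the random blocks (0.402%) and 31 without the averaged RafGOF scrib- pair and RasV12 baz- replicate 4 (8.16%). Over the fits without 1 array, 1.04% to 6.46% of all features were called. Of the 79 they called 7 without RasV12 scrib- replicate 2, 11 and 9 without RasV12 baz- replicates 1 and 2, 8 higher and 1 lower without RasV12 baz- replicate 3, and 12, 13 and 13 without RasV12 cdc42- replicates 1, 3 and 4.

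The loss of scrib is common to RafGOF scrib- and RasV12 scrib-, which differ in the oncogene. Of the 79 genes 5 were higher in RafGOF scrib- (n = 3 against 4), against 0.625% of all features, by 1.09 to 1.61 on the log2 scale. Among them FBgn0004170 differed by 1.09 ± 0.22 (SE, 2.13-fold, adjusted p = 0.0242) and FBgn0039283 by 1.44 ± 0.33 (2.71-fold, adjusted p = 0.0483). The other 3, named after their values were seen, were FBgn0027570 with 1.38 ± 0.25 (adjusted p = 0.0132), FBgn0032350 with 1.61 ± 0.33 (adjusted p = 0.0297) and FBgn0038652 with 1.42 ± 0.30 (adjusted p = 0.0316). In all 5 the replicates of the genotypes did not overlap. Over the 79 genes 27 had every RafGOF scrib- replicate above, as in 6.3% of all features, and 1 had every replicate below (6%). In either direction the calls were 5 of the 79 and 1.26% of all features. The count was 0 with quantile normalization (0.893% of all features), with equal spread (0.357%) and with the random blocks (0.196%), and 2 on the Cy3 arrays (0.831%). It was 10 with values as deposited (1.18%), 16 without the 2 doubtful samples (3.39%), and with no dye term 10 were higher and 1 lower (2.01%). With array weights it was 9 (2.73%) and with the replicate block 2 (0.661%). Over the fits without 1 array 0.330% to 1.80% of all features were called. Of the 79 the count was 0 without RafGOF scrib- replicate 3 or 4, 1 without RasV12 cdc42- replicate 3 or 4, 2 without RasV12 scrib- replicate 2 or 4 or RasV12 cdc42- replicate 1, 3 without RasV12 baz- replicate 2, and 10 without RafGOF scrib- replicate 1. The median fitted difference over the 79 was 0.58 with centred arrays and -0.25 with equal spread, so its direction also turned with the scaling.

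No gene of the 79 passed the threshold between RasV12 cdc42- and RasV12 baz- (limma, n = 4 each), where 0.0357% of all features did. At an unadjusted p under 0.05 there were 7 of 79, against 7.17% of all features. The fitted differences ran from -0.79 to 1.49 on the log2 scale, with a median of 0.05 and a median SE of 0.33. By the fit, 35 of the 79 were lower in RasV12 cdc42- and 44 in RasV12 baz-. By the genotype means, which carry no dye term, it was 37 and 42. Every RasV12 cdc42- replicate lay above every RasV12 baz- replicate in 4 genes (2.47% of all features) and below in 1 (4.45%). With array weights 20 of the 79 were called higher and 7 lower, and 30.8% of all features were called. The count was 2 without the 2 doubtful samples (1.58% of all features), 1 without RasV12 baz- replicate 3 (0.107%) and 1 without replicate 4 (0.652%).

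**Figure D5:**
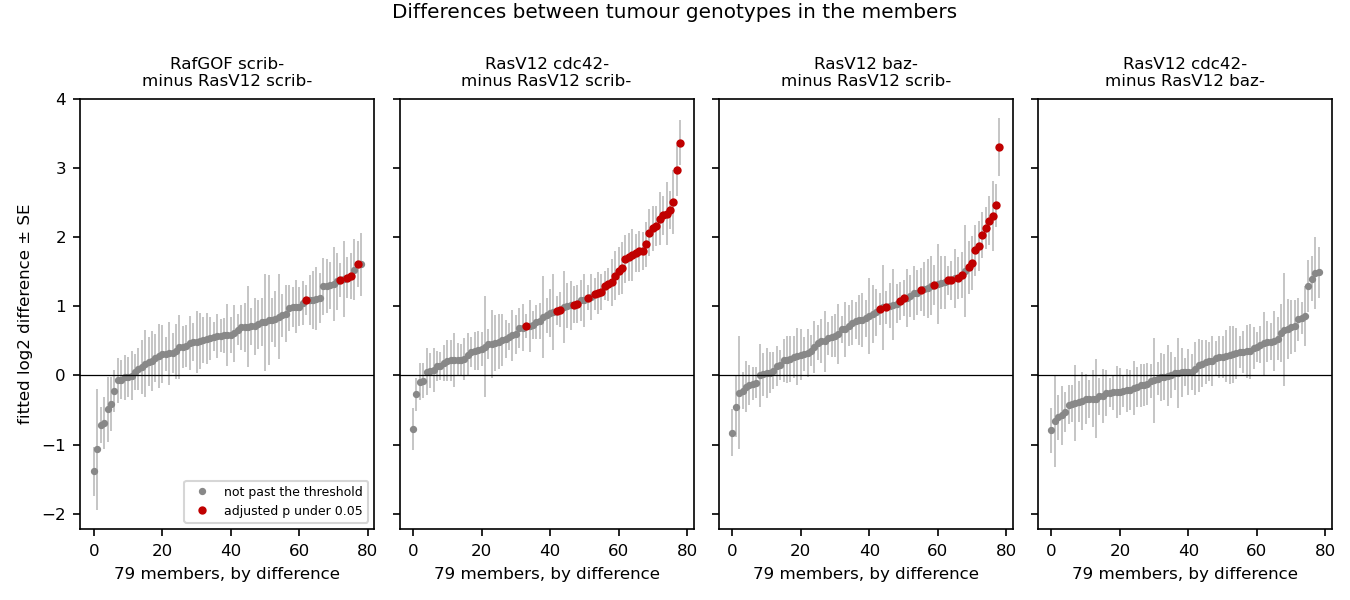
Fitted log2 difference ± SE of each of the 79 genes in 4 comparisons between genotypes, sorted by size, with genes past the threshold in red. Red points number 5, 32, 20 and 0 from left to right, and all of them are above 0.

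The dye of the tumour RNA was changed on some RasV12 scrib- and RasV12 cdc42- arrays and on none of the other genotypes. For none of the 79 did limma's dye term pass the threshold (lowest adjusted p = 0.284), as for 0% of all features, and 7 of 79 had an unadjusted p under 0.05, against 13.3% of all features. With array weights 34 of the 79 passed, and 57.9% of all features. The fitted dye effect was negative, lower with tumour RNA in Cy5, for 55 of the 79 (median -0.15, against -0.03 over all features). Its part in the comparisons of RafGOF scrib- and RasV12 baz- with RasV12 scrib- was not tested beyond the fits without the dye term and on the Cy3 arrays.

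Replicates 1 and 2 were lower than replicates 3 and 4 for most of the genes: in 68 of 79 in RafGOF scrib- (averaged pair against replicates 3 and 4), 54 in RasV12 cdc42-, 58 in RasV12 baz- and 47 in RasV12 scrib-. The median difference was -0.63, -0.26, -0.23 and -0.14 on the log2 scale in that order. In RasV12 cdc42- these pairs coincide with the dye and cannot be told apart from it. The same counts were not made over all features, so they are not read as particular to the 79. Of all features, 10.7%, 3.89% and 3.12% were at -0.7 or less on the RafGOF scrib- replicates. It was 7.23%, 14.3%, 3.20% and 3.17% in RasV12 cdc42- and 5.80%, 4.85%, 3.80% and 4.29% in RasV12 baz-. In RasV12 scrib- it was 17.0%, 19.8%, 9.15% and 9.92%.

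The genotype means of a gene lay a median of 1.11 apart on the log2 scale, against 0.47 over all features. They were within 0.5 of each other in 14 of the 79 genes, over 1 apart in 51 and over 2 apart in 12. The most even gene, FBgn0028479, singled out after its values were seen, had means of -1.38, -1.36, -1.27 and -1.26 in RafGOF scrib-, RasV12 cdc42-, RasV12 baz- and RasV12 scrib-, and it read -2.09, -0.99 and -1.07 in RafGOF scrib-, -1.49, -1.65, -0.89 and -1.39 in RasV12 cdc42-, -1.33, -1.39, -1.21 and -1.15 in RasV12 baz-, and -0.95, -1.87, -0.96 and -1.29 in RasV12 scrib-. Its groups overlapped throughout (F-test adjusted p = 0.989).

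FBgn0035638, also singled out afterwards, ran against the common order. It read -2.63, -2.50 and -2.29 in RafGOF scrib-, -1.99, -1.63, -2.0 and -1.93 in RasV12 cdc42-, -2.16, -2.19, -0.74 and -2.55 in RasV12 baz-, and -1.30, -1.01, -1.18 and -0.95 in RasV12 scrib-. Every RafGOF scrib- and RasV12 cdc42- replicate was below every RasV12 scrib- replicate, yet the differences from RasV12 scrib- did not pass the threshold, at -1.39 ± 0.36 (SE, adjusted p = 0.0758) for RafGOF scrib- and -0.77 ± 0.30 (adjusted p = 0.199) for RasV12 cdc42-. The 11 genes not lowest in RasV12 scrib- also included FBgn0001224, with RafGOF scrib- at -3.35, and FBgn0030948, with RasV12 baz- at -2.59 and RasV12 scrib- at -2.56.

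By genotype, 410 features had a mean of -0.7 or less in RafGOF scrib-, 423 in RasV12 cdc42-, 301 in RasV12 baz- and 1100 in RasV12 scrib-. The 79 genes made up 19.3%, 18.7%, 26.2% and 7.18% of these lists. The limit was met in 3 genotypes by 133 features, in 2 by 334 and in 1 by 843. Just inside it were FBgn0021979, FBgn0000412 and FBgn0027930, whose highest genotype means were -0.70, -0.71 and -0.71. Just outside were FBgn0031747, FBgn0000640 and FBgn0038046, with -0.699 each. FBgn0000640 was lower in RasV12 scrib- (-2.75) than most of the 79 and missed the limit in RasV12 baz- alone. The 2 features left out by the rule averaged -4.58, -2.25, -5.37 and -5.84 (FBgn0001254) and -3.04, -2.59, -2.92 and -5.38 (FBgn0024294) in RafGOF scrib-, RasV12 cdc42-, RasV12 baz- and RasV12 scrib-.

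Of the 71 features with a symbol none met the limit in all 4 genotypes, and the 79 genes are 0.706% of all features. The nearest was CG15282, with means of -0.51, -0.66, -0.44 and -0.74 in RafGOF scrib-, RasV12 cdc42-, RasV12 baz- and RasV12 scrib-. Lsp2, which encodes a storage protein that the larval fat body secretes, met it in 3 genotypes, with means of -1.15, -1.81, -0.26 and -3.98. Lsp2 varied widely within RasV12 baz-, from 2.13 on RasV12 baz- replicate 1 to -3.16 on replicate 4. Eig71Ee, an ecdysone-induced gene, also met it in 3, with means of -0.97, -0.18, -1.01 and -2.24. Lsp2 marks fat body RNA, and its part in the low values of the 79 genes was not tested.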

How the data were processed

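Each array compared tumour RNA with wild-type disc RNA in 2 colours. The deposited values were 1 column of log ratios per array, used as log2. The base was taken from the values: among 409 values that an array repeats 3 or more times, 36.7% are the log2 of 1 digit from 1 to 9 divided by another (tolerance 1e-05), and 0% are such a natural or decimal logarithm. The authors' background correction, normalization and any filter are not given in the sources used here. Per the labels, RNA was amplified and labelled from random hexamers. All columns belonged to a sample.

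The median of each array was subtracted, RafGOF scrib- replicates 1 and 2 were averaged, and the 79 genes and the lists were chosen with earlier results of these data known. Models were fitted with limma 3.58.1 in R 4.3.3 to all 11196 features, with genotype and tumour dye as terms, and p-values were adjusted with Benjamini-Hochberg at 0.05. Tables and plots used Python 3.11.15 and matplotlib 3.10.9. The script was tested on simulated data with independent replicates, in which 200 features were changed in RasV12 scrib-. Of changes of 1 on the log2 scale, the F-test recovered 41%. The comparisons of RafGOF scrib-, RasV12 baz- and RasV12 cdc42- with RasV12 scrib- recovered 27%, 41% and 48%. Changes of 2 were recovered at 96% to 100%. Recovery between RasV12 cdc42- and RasV12 baz- was not simulated. A missing call is therefore not evidence of equal levels. Full values are given for the 15 genes lowest by their mean and those with the lowest F-test p, up to 20.

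Replicate numbers were checked for pairing. Deviations of same-numbered replicates from their genotype means correlated at -0.35 to 0.36 over 21 pairs, with a median of 0.13. Those of differently numbered replicates correlated at -0.40 to 0.36 over 63 pairs, with a median of -0.05. Correlations over 0.1 were found in 12 of the 21 pairs and in 20 of the 63. The ranges overlapped, which does not exclude a pairing, and the numbers were not taken to pair the samples. A shared effect of the number was not tested beyond the fit with the number as a block. Alternatives were the scaling of the arrays, the dye term, Cy3 arrays alone, the replicate number or the pairs 1-2 and 3-4 as blocks, array weights, the 2 RafGOF scrib- arrays kept apart, the limit of the rule, and leaving out each replicate. Equal spread and leaving out the 2 doubtful samples (the averaged RafGOF scrib- pair and RasV12 baz- replicate 4) were added after seeing the data. Intensities and spot quality were not analysed here.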

Additional observations from a re-analysis of the deposited data

Results flagged for a closer look

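Dixon's criterion was applied to 63 sets of 4 replicates, 60 from the 20 genes given in full and 3 of the median over the 79 genes. In 4 of the gene sets 1 replicate stood far from the others, and chance alone would give about 1 in 20. FBgn0029863 read -1.61 on RasV12 cdc42- replicate 4, with the others at -2.34 to -2.29. FBgn0029924 read -3.36 on RasV12 scrib- replicate 3, with the others at -3.05 to -3.0. FBgn0039283 read -0.40 on RasV12 baz- replicate 3, with the others at -1.28 to -1.20. FBgn0010433 read -3.92 on RasV12 scrib- replicate 2, with the others at -2.89 to -2.69.

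The fall against wild-type differed between genotypes by limma's test (adjusted over all features) in the following genes, each less lowered than in RasV12 scrib-. In RafGOF scrib- the log2 difference was 1.44 for FBgn0039283 and 1.09 for FBgn0004170. In RasV12 cdc42- it was 3.37 for FBgn0001255, 2.97 for FBgn0003295, 2.51 for FBgn0014427, 2.40 for FBgn0040282 and 2.32 for FBgn0039283. It was 2.17 for FBgn0037665, 2.13 for FBgn0032895, 1.90 for FBgn0029749, 1.80 for FBgn0010433, 1.74 for FBgn0034462 and 1.69 for FBgn0039678. It was 1.56 for FBgn0029863, 1.5 for FBgn0039795, 1.30 for FBgn0001226, 1.18 for FBgn0001227 and 1.13 for FBgn0004170. In RasV12 baz- it was 3.30 for FBgn0003295, 2.46 for FBgn0039283, 2.24 for FBgn0029749, 2.13 for FBgn0040282 and 2.03 for FBgn0010433. It was 1.87 for FBgn0001255, 1.81 for FBgn0032895, 1.37 for FBgn0004170, 1.12 for FBgn0001227 and 0.96 for FBgn0001226. RasV12 scrib- arrays also had the widest spread over all features (SD 0.74 to 0.79). With equal spread on all arrays, fewer of the genes described here were called against RasV12 scrib-. The calls fell from 32 to 2 for RasV12 cdc42-, from 20 to 1 for RasV12 baz- and from 5 to 0 for RafGOF scrib-. For RafGOF scrib- the median fitted difference over these genes went from 0.58 to -0.25. Most of the differences listed above were therefore not called at equal spread, and the cause of the wider spread was not tested.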

How the results depend on the processing

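The number of genes lowered in all 4 genotypes was 79, and 160 with a limit of -0.5, 41 with a limit of -1, 52 with values as deposited and 71 to 89 without single replicates. Calls below are in either direction. With quantile normalization they were 8 in the F-test, 0 for RafGOF scrib-, 10 for RasV12 cdc42- and 4 for RasV12 baz- against RasV12 scrib-. With equal spread they were 4, 0, 2 and 1, and FBgn0001226 in RasV12 baz- against RasV12 scrib- reversed to -0.20 (limma, adjusted p = 0.900, against 0.0229 to 0.9 over its alternatives). On the Cy3 arrays, which are fewer, they were 12, 2, 12 and 11, and with the pairs 1-2 and 3-4 as random blocks 6, 0, 8 and 5. Array weights gave 49 in the F-test, 9 for RafGOF scrib- against RasV12 scrib-, 27 between RasV12 cdc42- and RasV12 baz-, and 34 for the dye. RafGOF scrib- against RasV12 scrib- gave 10 as deposited, 11 with no dye term and 16 without the 2 doubtful samples, which gave 31 for RasV12 baz- against RasV12 scrib- and 2 between RasV12 cdc42- and RasV12 baz-. With the replicate number as a block the same comparison of RafGOF scrib- gave 2, and the block moved no other count by over 1.5 times (28 in the F-test, 32 for RasV12 cdc42- and 21 for RasV12 baz- against RasV12 scrib-). In the check of pairing, 7 of 15 replicates correlated best with their own number. Without single replicates the F-test gave 15 to 31, RafGOF scrib- 0 to 10, RasV12 cdc42- 20 to 34, RasV12 baz- 7 to 26, RasV12 cdc42- against RasV12 baz- 0 to 1 and the dye 0 to 0. The causes of these changes were not tested. For the 20 genes given in full, F-tests over 25 settings stayed on the same side of the threshold 432 times, lost the call 60 times and gained it 8 times. Their 28 calls between 2 genotypes kept call and direction 571 times, lost the call 128 times and reversed 1 time. Signal over background could not be assessed from log ratios.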
